A study of Homo sapiens with 8 samples.

Results

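hsa-miR-221-3p and hsa-miR-222-3p are the guide arms of the hairpins MIR221 and MIR222, that is, the strands that are kept in the silencing complex. They were taken by their systematic names from the scanner output of a miRNA array, and both were found, giving 2 of the 1887 human miRNAs on the array. The cells were PC-3, an established human prostate cancer line that is used as a model of androgen-independent disease. Treatment lasted 24 h and was with the solvent DMSO alone, with luteolin, with gefitinib or with both drugs together, each drug being dissolved in DMSO and given at 60 µM. Luteolin is a plant flavonoid, and gefitinib inhibits the kinase of the epidermal growth factor receptor. Each of the 4 groups had 2 arrays, labelled as biological replicates, and nothing in the labels says whether they came from separate cultures, so the p-values measure only the spread between these arrays. A single cell line, 1 dose and 1 time limit the groups as a model of either drug.

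A miRNA finds its targets mainly through its seed, the bases from position 2 to position 8 counted from the 5′ end. miR-221-3p and miR-222-3p are known to bind the mRNA of CDKN1B, which encodes p27, an inhibitor of cyclin-dependent kinases that holds cells before S phase. The pair is abundant in PC-3 cells and has been linked to their growth through low p27, and other known targets include CDKN1C and KIT. Both hairpins are cut from one long non-coding transcript, so one promoter can supply both.

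The mature sequences are printed because the shared seed is what makes the pair act on common targets, and the passenger strand of MIR222 because it was measured close to the detection limit and is followed beside the guide. They are those of RefSeq for build GRCh38.p14, 5′ to 3′, with the seed in capitals.
hsa-miR-221-3p: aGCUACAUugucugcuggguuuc
hsa-miR-222-3p: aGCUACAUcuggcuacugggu
hsa-miR-222-5p: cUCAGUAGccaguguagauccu
The guide arms are 23 and 21 bases long and identical over the first 8 bases. They match at 11 positions in all when aligned from the 5′ end. Among the 2370 mature human miRNAs of the table, each of the guide arms shares its seed with the other and with no further miRNA. miR-221-3p lies on the minus strand at chrX:45746180-45746202 and miR-222-3p at chrX:45747036-45747056 of that build. Their hairpins are 748 bases apart, and both lie within the long non-coding RNA gene MIR222HG. The hairpin of MIR222 is shown with both mature arms in capitals, the passenger arm miR-222-5p first and the guide arm second, at chrX:45747015-45747124 on the minus strand.
MIR222: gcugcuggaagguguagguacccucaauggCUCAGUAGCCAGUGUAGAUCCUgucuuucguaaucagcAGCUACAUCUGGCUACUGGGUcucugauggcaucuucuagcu
The passenger arm miR-221-5p was also measured, and its sequence is not printed.

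Between 395 and 481 miRNAs were detected per array, and all arrays lay on 1 slide and were read in 1 scan. The 75th percentile of the signal, which was used for scaling, ranged from 60.5 on replicate 2 of the co-administration to 92.7 on gefitinib replicate 2. Over the 365 miRNAs detected on every array, the replicates correlated at r = 0.997 for gefitinib and at 0.973 to 0.991 in the other groups, so the gefitinib arrays were the closest pair. Of the epithelial markers fixed for the check of the cell type, miR-200b-3p was detected on all 8 arrays and miR-205-5p on 6, while miR-200c-3p, miR-141-3p and miR-203a were detected on 0. Of the 5 blood markers miR-142-3p was detected on 1 array and the others on 0, and of the 2 nerve markers miR-9-5p was detected on 8 and miR-124-3p on 0. The 4 markers of muscle and the single ones of liver and endothelium were detected on 0 arrays. In bulk RNA, fewer cells of a type and less RNA per cell cannot be told apart.

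Both guide arms were measured well above background on all 30 spots of every array, and no spot was saturated. The scanner software assigned errors of 7.81% to 8.15% to the total signal of miR-221-3p and 9.06% to 9.12% to that of miR-222-3p. For miR-221-3p, the total signal as deposited was 415 and 444 on the DMSO arrays, 469 and 471 with luteolin, 406 and 384 with gefitinib, and 516 and 349 with both drugs. Before any scaling, then, the co-administration held both the highest and the lowest value. After scaling to the 75th percentile, the signal of miR-221-3p was 442 and 504 on the DMSO arrays, 439 and 492 with luteolin, 350 and 324 with gefitinib, and 464 and 452 with both drugs. Both gefitinib arrays were lower than all 6 other arrays, and the other groups overlapped. The gefitinib arrays also had the largest scaling factors, 1.16 and 1.18, by which their signals were divided. Shares of all miRNAs tested with such a separation are given below for pairs of groups.

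The signal of miR-222-3p as deposited was 295 and 272 on the DMSO arrays, 354 and 296 with luteolin, 307 and 332 with gefitinib, and 365 and 285 with both drugs. After scaling it was 314 and 309 on the DMSO arrays, 332 and 308 with luteolin, 264 and 280 with gefitinib, and 328 and 369 with both drugs. Again both gefitinib arrays were the lowest of the 8 after scaling, but as deposited they were both above the DMSO arrays. The direction of miR-222-3p with gefitinib therefore turned with the scaling.

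**Figure D1:**
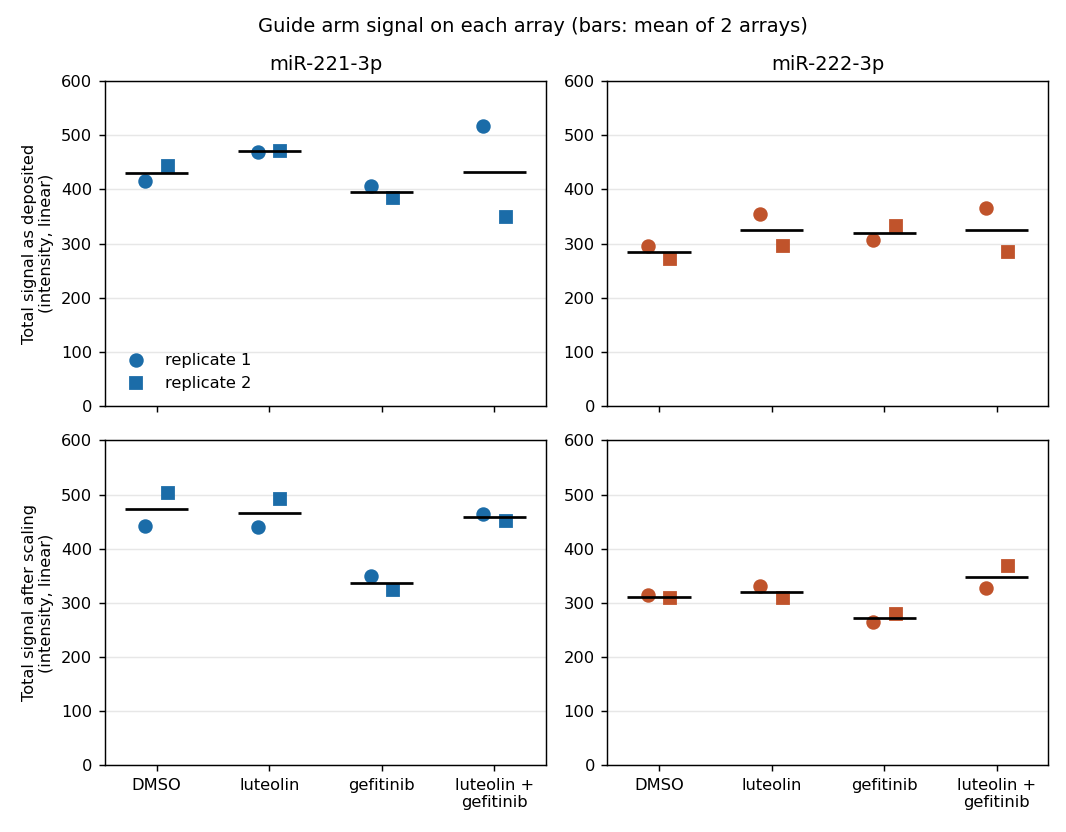
Total signal of miR-221-3p (left) and miR-222-3p (right) on each array, on a linear intensity axis that starts at 0, as deposited (top) and after scaling (bottom). Circles are replicate 1, squares replicate 2 and bars the mean of both. After scaling the gefitinib arrays are the lowest for both miRNAs (350 and 324, and 264 and 280), whereas as deposited those of miR-222-3p lie above the DMSO arrays.

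The range over all 8 arrays was narrow for both. The highest scaled signal of miR-221-3p was 1.55 times the lowest, and that of miR-222-3p 1.39 times. The standard deviation of the log2 signal over the arrays was 0.23 for miR-221-3p and 0.15 for miR-222-3p, beside a median of 0.27 for the 365 miRNAs detected on every array. Of those, 133 varied less than miR-221-3p and 34 less than miR-222-3p after scaling, but 22 and 10 did on the signals as deposited, where the standard deviations were 0.18 and 0.15 beside a median of 0.32.

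The main question was whether a drug moved the pair away from its level in DMSO-treated cells. Changes are given as log2 fold changes of the scaled signal from 1 limma fit of the 4 groups over 480 miRNAs, and a change was called when the Benjamini-Hochberg adjusted p was under 0.05. With luteolin, the scaled signal of miR-221-3p was 465 ± 37.0 (SD, n = 2) against 473 ± 43.7 with DMSO, a log2 fold change of -0.02 (SE 0.14, limma adjusted p = 1.00). That of miR-222-3p was 320 ± 16.4 against 311 ± 4.02 (log2 fold change 0.04, SE 0.13, limma adjusted p = 1.00). The 95% intervals of these changes ran from -0.37 to 0.33 and from -0.29 to 0.37. Neither guide arm was called, in a comparison where 2.08% of all miRNAs tested were.

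With gefitinib, miR-221-3p was at 337 ± 18.0 (SD, n = 2), which is 1.40-fold below its DMSO level. The log2 fold change was -0.49 (SE 0.14, 95% interval -0.84 to -0.14), with a limma p of 0.0152 that became 0.0909 after adjustment. miR-222-3p was at 272 ± 11.1, with a log2 fold change of -0.19 (SE 0.13, 95% interval -0.52 to 0.13, limma adjusted p = 0.484). For both guide arms the gefitinib arrays lay below both DMSO arrays, as they did for 36% of all miRNAs tested. Neither was called, while 12.1% of all miRNAs tested were called and 23.8% had an unadjusted limma p under 0.05.

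The scaling bore on these values. The median log2 fold change of the 480 miRNAs with gefitinib was -0.10 after the scaling used here, 0.26 with no scaling, 0.25 with scaling to human small-RNA control probes and 0.38 with scaling to spike-in probes. The corresponding log2 fold change of miR-221-3p was -0.12 with no scaling, -0.13 with the control probes and 0.01 with the spike-in probes, and that of miR-222-3p was 0.17, 0.17 and 0.30. Relative to the median of all miRNAs, miR-221-3p lay at -0.38 under each of these 4 scalings and miR-222-3p between -0.09 and -0.08. Quantile normalization placed them at -0.47 and -0.29 relative to the median. The near equality over the 4 scalings follows from their construction, since a single factor per array moves every miRNA and the median alike. miR-221-3p passed the threshold in 3 of 25 alternative settings, namely quantile normalization (-0.54, limma adjusted p = 0.0321), normexp correction followed by quantile normalization (-0.41, adjusted p = 0.0445) and log2 of the signal plus 16 (-0.47, adjusted p = 0.0268). In these settings 54, 73 and 58 of the 480 miRNAs were called.

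With luteolin plus gefitinib, the guide arms were near or above their DMSO levels. miR-221-3p was at 458 ± 8.93 (SD, n = 2), a log2 fold change of -0.04 (SE 0.14, limma adjusted p = 0.901) with a 95% interval from -0.40 to 0.31. miR-222-3p was at 349 ± 28.5, a log2 fold change of 0.16 (SE 0.13, limma adjusted p = 0.516) with a 95% interval from -0.17 to 0.49. Both arrays of the co-administration were above both DMSO arrays for miR-222-3p, as for 19.6% of all miRNAs tested. In this comparison 12.1% of all miRNAs tested were called and neither guide arm was. Scaling to the human control probes raised the median of all miRNAs to 0.24 and the change of miR-222-3p to 0.59, which passed the threshold (limma adjusted p = 0.0313). There 99 of 480 miRNAs were called. The geometric mean of the control probes was 8956 on replicate 2 of the co-administration and 12913 to 15524 on the other arrays. With that scaling miR-221-3p was at 0.39 and did not pass.

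**Figure D2:**
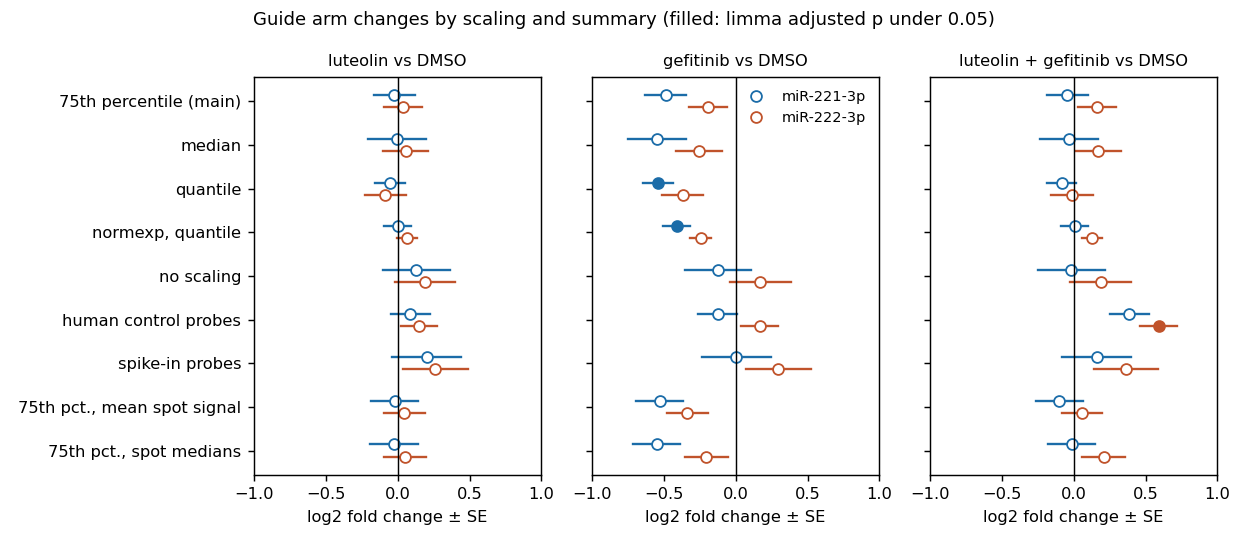
Log2 fold change against DMSO of both guide arms under 9 ways of scaling or summarising the signal (rows), for luteolin (left), gefitinib (middle) and both drugs (right), with bars of 1 SE. Filled points had a limma adjusted p under 0.05. With gefitinib miR-222-3p moves from -0.19 in the top row to 0.30 with spike-in probes, and miR-221-3p from -0.49 to 0.01.

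The co-administration was next compared with each drug alone. Against gefitinib alone, miR-221-3p was higher by 0.44 on the log2 scale (SE 0.14, limma adjusted p = 0.264) and miR-222-3p by 0.35 (SE 0.13, limma adjusted p = 0.328). For both guide arms the arrays of the 2 groups did not overlap, which held in this direction for 18.8% of all miRNAs tested. In this comparison 4.58% of all miRNAs tested were called. Without scaling the changes were smaller, but all 25 alternative settings left both guide arms higher with both drugs than with gefitinib alone, over ranges of 0.11 to 0.53 for miR-221-3p and 0.02 to 0.44 for miR-222-3p. Against luteolin alone, the changes were -0.02 (limma adjusted p = 1.00) for miR-221-3p and 0.12 (limma adjusted p = 0.826) for miR-222-3p, and the background of calls was 1.88%.

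Gefitinib and luteolin, given at the same dose for the same time, were also compared directly. The log2 fold change of miR-221-3p was -0.47 (SE 0.14, 95% interval -0.82 to -0.11, limma adjusted p = 0.151), and that of miR-222-3p -0.23 (SE 0.13, 95% interval -0.56 to 0.10, limma adjusted p = 0.515). Both gefitinib arrays were below both luteolin arrays for either guide arm, as for 19% of all miRNAs tested in this direction, and 5% of all miRNAs tested were called. miR-221-3p was below its luteolin level in all 25 alternative settings and passed the threshold in 2 of them, with the signal plus 16 (-0.45, limma adjusted p = 0.0399) and with normexp and quantile normalization (-0.41, adjusted p = 0.0493).

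The order of the mean scaled signals of miR-221-3p was therefore gefitinib, both drugs, luteolin, DMSO, from lowest to highest, and that of miR-222-3p was gefitinib, DMSO, luteolin, both drugs. In neither order did neighbours differ past the threshold. Treating the 4 groups as a 2 by 2 factorial, the main effect of gefitinib was -0.25 for miR-221-3p (SE 0.10, limma adjusted p = 0.176) and -0.04 for miR-222-3p (limma adjusted p = 0.863). The main effect of luteolin was 0.21 and 0.20 (limma adjusted p = 0.405 for both). The interaction, which is the change with both drugs minus the sum of the single changes, was 0.47 for miR-221-3p (SE 0.20, limma adjusted p = 0.534) and 0.32 for miR-222-3p (SE 0.19, limma adjusted p = 0.762). Of all miRNAs tested, 16.7%, 6.46% and 3.33% were called for the gefitinib effect, the luteolin effect and the interaction.

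Over the 9 comparisons, 0 of the 18 changes of the guide arms were called by limma, and 5 had an unadjusted limma p under 0.05. The largest change was 0.49 in size. These 5 were miR-221-3p with gefitinib against DMSO and against luteolin, in the main effect of gefitinib (where 26.7% of all miRNAs tested had such a p), and both guide arms with both drugs against gefitinib. The backgrounds at this unadjusted level were 23.8% with gefitinib against DMSO, 16.7% against luteolin and 12.5% with both drugs against gefitinib. The methods' t-test, run here on the scaled log2 signals whereas the authors normalised the total signals to the DMSO sample, gave unadjusted values of 0.0466 and 0.0471 for miR-221-3p and miR-222-3p with gefitinib and 0.195 for both after adjustment, where 118 of 477 miRNAs (24.7%) were under 0.05. For miR-221-3p it also gave 0.0167 with both drugs against gefitinib (0.146 after adjustment) and 0.0414 with gefitinib against luteolin (0.336 after adjustment), where 18.3% and 14.4% of the miRNAs were under 0.05. On log2 of the signals as deposited the methods' t-test with gefitinib gave 0.194 for miR-221-3p and 0.170 for miR-222-3p (0.437 and 0.409 after adjustment), and there the mean of miR-222-3p was 319 with gefitinib against 283 with DMSO. No change of either guide arm reached 2-fold.

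**Figure D3:**
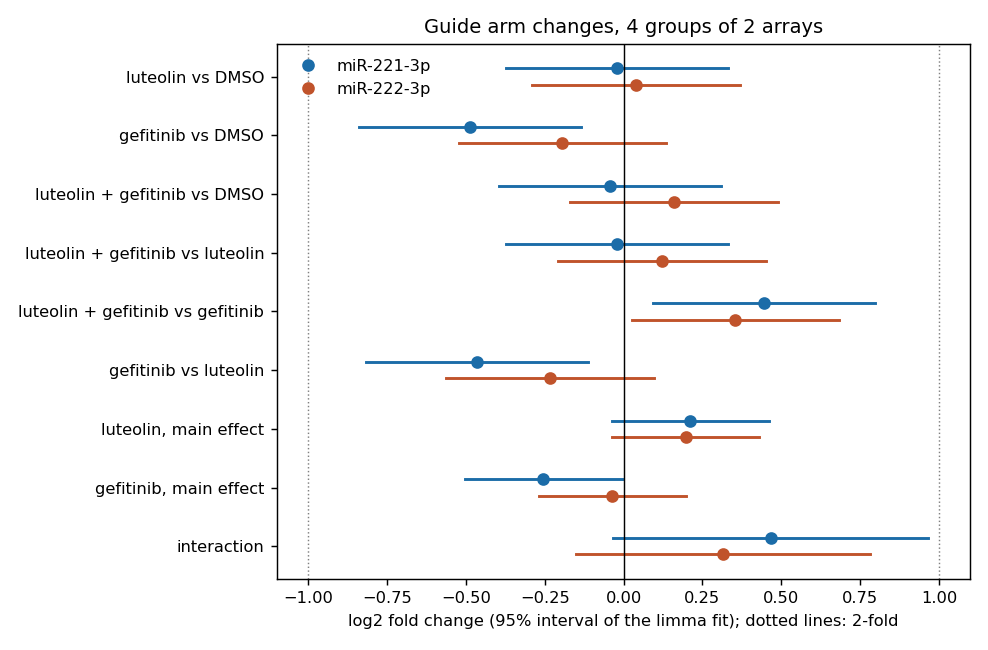
Log2 fold changes (points) of miR-221-3p and miR-222-3p in 9 comparisons, with 95% intervals from the limma fit and dotted lines at a 2-fold change. The gefitinib interval of miR-221-3p runs from -0.84 to -0.14 and that of miR-222-3p from -0.52 to 0.13, and no interval reaches the 2-fold lines.

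Each guide arm was measured by a pair of probes with 15 spots each. The probes of miR-221-3p gave log2 fold changes with gefitinib of -0.69 and -0.42, so they had the same direction and differed in size. Those of miR-222-3p gave -0.20 and -0.19. With luteolin the 4 probes lay between -0.04 and 0.04, and with both drugs between -0.11 and 0.16. The spots of the brighter probe of miR-222-3p scattered most on the gefitinib arrays, with coefficients of variation of 14.3% and 24.4%. On the DMSO and luteolin arrays these were between 1.93% and 3.45%, and with both drugs 11.6% and 9.86%. The dimmer probe of miR-222-3p had 17.1% and 14.4% with gefitinib, beside 4.89% to 5.85% with DMSO and luteolin. For the brighter probe of miR-221-3p these were 9.34% and 13.0%, beside 2.24% to 2.80%. Its dimmer probe had 6.48% and 4.01%, beside 1.66% to 3.39%. On gefitinib replicate 2 the lowest spot of the brighter miR-222-3p probe read 163 beside a median of 1049. The part of this scatter in the gefitinib results was not tested. On spot medians the gefitinib change of both guide arms kept its direction.

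Because the guide arms come from one transcript, the ratio of their signals within an array was followed. A ratio within an array does not depend on scaling by a single factor per array, and its level has no meaning between different probes, so its changes are given. Relative to DMSO, the mean log2 ratio of miR-221-3p to miR-222-3p was -0.06 with luteolin, -0.29 with gefitinib and -0.20 with both drugs. The log2 ratio was 0.49 and 0.71 on the DMSO arrays, 0.41 and 0.67 with luteolin, 0.40 and 0.21 with gefitinib, and 0.50 and 0.29 with both drugs. The DMSO arrays were both above those of gefitinib and overlapped with the other groups, and the replicates of one group differed by 0.19 to 0.27. Leaving out 1 array moved the mean change to between -0.19 and 0.073 with luteolin, between -0.40 and -0.19 with gefitinib and between -0.31 and -0.096 with both drugs. Quantile normalization, which is not a single factor, gave 0.032, -0.17 and -0.071 in these groups, so the sign with luteolin turned and the other changes shrank. After normexp and quantile normalization they were -0.064, -0.17 and -0.12, and on the mean processed signal -0.067, -0.19 and -0.16. On spot medians they were larger, at -0.074, -0.34 and -0.22, and with the signal plus 16 they were -0.058, -0.28 and -0.19. Over the 8 arrays, the scaled log2 signals of the pair correlated at r = 0.661 (Spearman's rho 0.286), and at r = 0.485 before scaling. These points share the scaling factor of each array and fall in 4 groups, so the values are descriptive.

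The passenger arms, which are mostly degraded after the guide strand is chosen, were followed on the same arrays. miR-221-5p was detected on all 8 arrays, with scaled signals of 14.4 and 22.8 on the DMSO arrays, 12.5 and 21.7 with luteolin, 15.7 and 15.8 with gefitinib, and 14.2 and 16.8 with both drugs. All groups overlapped, and its log2 fold changes against DMSO were -0.14, -0.20 and -0.23 (limma adjusted p = 0.981, 0.801 and 0.736). miR-222-5p was detected at 3.62 and 3.53 on the DMSO arrays, on 1 luteolin array (0.871), on 1 gefitinib array (0.562) and on neither array of the co-administration. In every drug group both arrays were thus below both DMSO arrays or below detection. Arrays lay apart in this direction for 17.7%, 36% and 33.3% of all miRNAs tested with luteolin, gefitinib and both drugs.

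miR-222-5p was tested at all only because it was detected on both DMSO arrays, the group in which it is highest, so a lower value in the drug groups was favoured by the filter and the fit is a description rather than support. In that fit miR-222-5p fell by 2.29 on the log2 scale with luteolin (SE 0.19, adjusted p = 0.00383), by 2.55 with gefitinib (adjusted p = 0.00213) and by 2.55 with both drugs (adjusted p = 0.00142). With all 1887 human miRNAs tested the floored values and so the sizes were the same, with limma adjusted p = 0.0647, 0.0188 and 0.0254. Of those miRNAs, 5, 18 and 12 were called with luteolin, gefitinib and both drugs. That fit is a description as well. These fits set undetected arrays to a floor of 0.609, as well as the gefitinib array at 0.562, so their sizes depend on that floor and their errors are too small. Against the lowest signals detected on the arrays of the co-administration, miR-222-5p was at least 5.18-fold lower with both drugs than with DMSO. Its 4 probes were unequal, and the total signal did not hold the same ones on every array. On the DMSO arrays it summed the brightest and the next, whose scaled signals were 1.17 and 1.13. On luteolin replicate 1 and gefitinib replicate 1 it held the brightest alone, without the 0.269 and 0.319 of the next. The sizes above depend on this as well. The brightest, with 7 spots, had scaled signals of 2.45 and 2.40 with DMSO, 0.871 and 0.369 with luteolin, 0.562 and 0.210 with gefitinib, and 0.035 and -0.098 with both drugs, with no floor applied. All 7 of its spots were well above background on both DMSO arrays, 4 on luteolin replicate 1 and 0 on the other 5 arrays. With luteolin miR-222-5p was no longer called in 7 of 24 alternative settings. In 5 of these its log2 fold change stayed at -2.28 to -2.29 and the adjusted p lay between 0.0647 and 0.617, whereas it shrank to -0.25 with the signal plus 16 and to -0.12 after normexp and quantile normalization. With gefitinib it lost the call in 2 of 24, the mean processed signal (-1.56, limma adjusted p = 0.0543) and the series table, which holds the same spot values. On the gefitinib arrays another probe of miR-222-5p had a spot at 71.7 and at 38.8, beside medians of 1.29 and -0.063. The part of these spots in that loss was not tested. Over the 24 alternatives the change ran from -2.58 to -0.11 with gefitinib and from -2.82 to -0.16 with both drugs.

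Guide over passenger was tested as the log2 ratio of the 3p to the 5p signal within each array, over the 57 hairpins with both arms tested. For MIR222 the ratio rose by 2.33 with luteolin (SE 0.21, limma adjusted p = 0.00115), by 2.36 with gefitinib (adjusted p = 0.00108) and by 2.71 with both drugs (adjusted p = 0.00045), where 10.5%, 14% and 24.6% of the hairpins were called. For MIR221 it changed by 0.12, -0.28 and 0.19 (SE 0.29, limma adjusted p = 0.926, 0.553 and 0.672). For the MIR222 ratio miR-222-5p stood at the floor on luteolin replicate 2, on both gefitinib arrays and on both arrays of the co-administration. It was tested only through its detection with DMSO. The sizes thus depend on the floor and on the probes summed, the errors are too small and the calls are no support for a change. For both drugs against DMSO, adding the fitted change of miR-222-3p (log2 0.16, SE 0.13) to the bound of miR-222-5p gave a 5.79-fold higher ratio. This value is not a lower bound, since the change of miR-222-3p is an estimate. It too rests on the detection of miR-222-5p with DMSO and is no support for a change. On the mean processed signal the MIR222 ratio with gefitinib was 1.22 and was not called. The interaction of the MIR222 ratio was -1.98 (SE 0.30, limma adjusted p = 0.0245, with 3.51% of the hairpins called), and the floored values of miR-222-5p enter it.

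**Figure D4:**
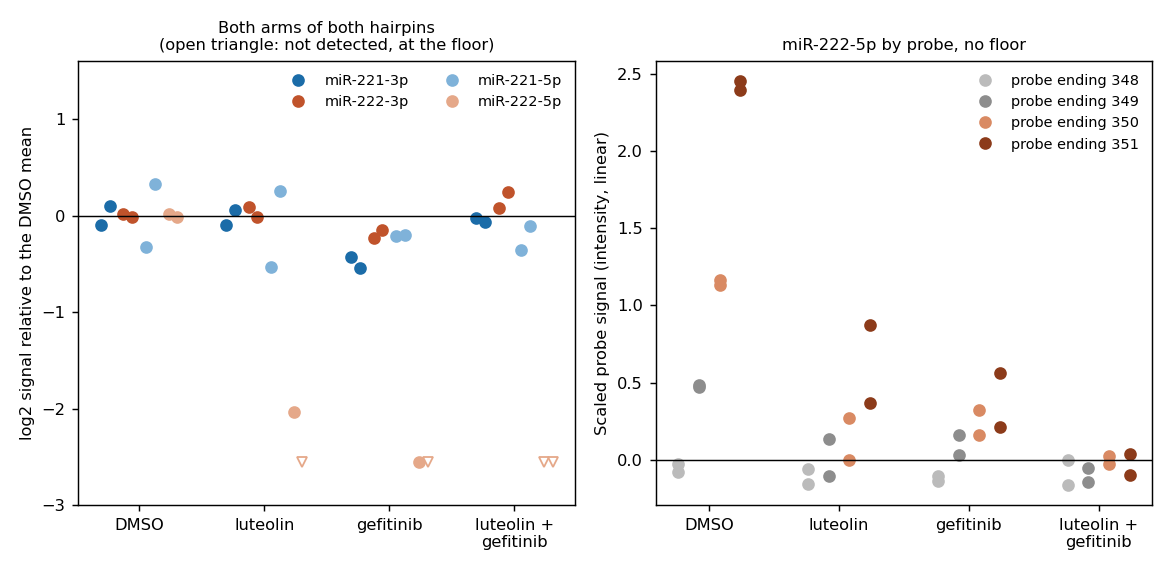
Left, log2 scaled signal of each guide and passenger arm on each array, relative to the DMSO mean of the same miRNA, where open triangles are arrays on which the miRNA was not detected, drawn at the floor. Right, scaled signal of the 4 probes of miR-222-5p on a linear axis with no floor. The brightest probe (dark brown) falls from 2.45 and 2.40 with DMSO to 0.035 and -0.098 with both drugs, while the guide arms stay within 0.54 of their DMSO means.

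Other miRNAs with a published action on the same step of the cell cycle were described from 3 lists, which hold other miRNAs reported to act on CDKN1B, the miR-17 seed family that acts on the p21 gene CDKN1A, and miRNAs that restrain cyclin D or its kinases. Of 20 names, 18 were on the array as written and 17 were tested. limma called 0 of them against DMSO with luteolin, gefitinib or both drugs, beside 2.08%, 12.1% and 12.1% of all miRNAs tested. At an unadjusted limma p under 0.05 there were 0, 2 and 0, beside 8.54%, 23.8% and 25.8% of all miRNAs tested. The methods' t-test had 1, 2 and 0 under 0.05, beside 5.56%, 24.7% and 18.3% of all miRNAs, and 0 after adjustment, where 0, 39 and 13 of all miRNAs remained under 0.05. The median log2 fold change of the 17 was -0.12 with luteolin, -0.17 with gefitinib and -0.12 with both drugs, beside -0.10, -0.10 and -0.16 for all miRNAs tested. Of the 17, 12, 14 and 14 were below 0, as were 64.2%, 59.8% and 66.2% of all miRNAs tested. These signs depended on the scaling, since with gefitinib the median of the 17 was 0.20 with no scaling, 0.19 with the human control probes and 0.32 with the spike-in probes, beside 0.26, 0.25 and 0.38 for all miRNAs. By list, after the scaling to the 75th percentile, the median with gefitinib was -0.21 for the CDKN1B list, -0.44 for the miR-17 family and -0.05 for the cyclin D list. An array entry named hsa-miR-152, without an arm in its name, was detected on 8 arrays and was not counted as the listed miR-152-3p. Its log2 fold changes were 0.14, 0.046 and -0.038 (limma adjusted p = 0.958, 0.917 and 0.941), and with it the median with gefitinib was -0.16 for the 18 and -0.16 for the CDKN1B list.

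The miRNAs whose scaled log2 signal followed that of each guide arm most closely over the 8 arrays were named by Pearson's r among the 364 others detected on every array. For miR-221-3p these were miR-99b-5p (r = 0.928), miR-664b-3p (0.898), miR-181b-5p (0.888), miR-720 (0.879) and miR-1260a (0.876). miR-181b-5p is also in the CDKN1B list, and the entry for miR-720 carries an older release tag on the array. For miR-222-3p they were miR-1268a (0.962), miR-30d-5p (0.834), miR-4665-3p (0.831), miR-92a-3p (0.820) and miR-1273g-3p (0.813). Neither guide arm was among the 5 closest to the other, since miR-222-3p came 32nd for miR-221-3p, and miR-221-3p came 15th for miR-222-3p. The 8 points share 1 scaling factor per array and 4 treatments, so these values rank likeness over these arrays only.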

How the data were processed

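Cy3-labelled total RNA of PC-3 cells was hybridised by the authors to 8 one-colour Agilent miRNA arrays, and Agilent Feature Extraction 10.7.3.1 gave the deposited values, a linear intensity after background subtraction that was not normalised across arrays. The total signal per miRNA is a sum over its probes, but for miR-222-5p some probes were left out of it. The deposited series table holds the intensity of each spot. Groups were taken from the sample titles. Here total signals were divided by a per-array factor so that the 75th percentile of the 365 miRNAs found on every array was equal. Signals under 0.609, the median of the 8 lowest detected values, were set to it before log2 was taken. To be tested, a miRNA had to be detected on each array of some group, which left 480, and these were fitted with limma 3.58.1 in R 4.3.3 (lmFit and eBayes, two-sided, 4 residual and 1.66 prior degrees of freedom), with Benjamini-Hochberg adjustment per comparison. The script was tested on simulated data. An exact permutation test of 2 arrays against 2 cannot go below 0.333 and was not used. The number of arrays limits the precision. The miRNAs and lists were chosen with earlier results of these data known. The named miRNAs are both guide arms, their passenger arms and the 5 most correlated with each guide arm. Alternatives changed the scaling, spot summary, background correction, filter, floor and test, and left out each array in turn. Spot medians, a fit with the gefitinib arrays as 1 sample, crossed replicate numbers, the lists with hsa-miR-152, the list medians by scaling, the methods' t-test on signals as deposited and other normalizations of the ratio of the guide arms were added after seeing the data. Sequences are from RefSeq GRCh38.p14, whereas the array design names hg19.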

Additional observations from a re-analysis of the deposited data

Results flagged for a closer look

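Both results below were singled out because the effect of one drug differed by whether the other was present, as a limma interaction on the log2 scale. For miR-222-5p the interaction was 2.29 (limma adjusted p = 0.0166, with 3.33% of all miRNAs tested called). The sum of the single effects would have placed its log2 signal at -3.01, below the floor of -0.71, at which both arrays of the co-administration stood, so the floor fixed the whole of this value. It was called in 7 of 22 alternative settings and lost the call in 15, over 0.071 to 2.55 (limma adjusted p = 0.00294 to 0.879), and among those that ended it was testing all human miRNAs (adjusted p = 0.102). For MIR222 the interaction of guide over passenger was -1.98 (limma adjusted p = 0.0245, with 3.51% of 57 hairpins called). By construction it is the interaction of miR-222-3p, 0.32, minus the 2.29 of miR-222-5p that the floor fixed. The groups of 2 arrays were too small for a check of single outlying arrays.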

How the results depend on the processing

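Of 438 alternative values for the 18 changes of the guide arms, 399 kept their direction and their side of the threshold, 33 turned in direction and 6 passed the threshold, and the cause was not tested. Log2 values are given throughout. With no scaling, miR-221-3p had 0.13 with luteolin and an interaction of -0.025, miR-222-3p had 0.17 with gefitinib, 0.084 for the gefitinib main effect, -0.0036 for both drugs against luteolin and an interaction of -0.18, and miR-221-5p had 0.015 with luteolin, 0.16 with gefitinib and an interaction of -0.38. With spike-in probes, miR-221-3p had 0.20, 0.0051 and 0.16 with luteolin, gefitinib and both drugs and an interaction of -0.046. There miR-222-3p had 0.30 with gefitinib, 0.20 for its main effect, 0.036 for gefitinib against luteolin and an interaction of -0.20, and miR-221-5p had 0.085 with luteolin, 0.29 with gefitinib and an interaction of -0.40. With human control probes, miR-221-3p had 0.089 with luteolin, 0.39 with both drugs, 0.30 for both drugs against luteolin and 0.086 for the gefitinib main effect. There miR-222-3p had 0.17 with gefitinib, 0.30 for its main effect, 0.018 for gefitinib against luteolin and 0.59 with both drugs, which was called, and miR-221-5p had 0.16 with gefitinib and 0.20 with both drugs. Quantile normalization gave miR-222-3p -0.085 with luteolin and -0.012 with both drugs, and the MIR221 arm ratio -0.047 with luteolin. It gave miR-221-3p -0.54 with gefitinib, which was called. After normexp and quantile normalization miR-221-3p had 0.0016 with luteolin, 0.0084 with both drugs and 0.0068 for both drugs against luteolin, and was called with gefitinib (-0.41) and for gefitinib against luteolin (-0.41). With log2 of the signal plus 16 the last pair of changes was called at -0.47 and -0.45. On spot medians both drugs against luteolin gave 0.010 for miR-221-3p. The MIR222 arm ratio with gefitinib was not called when spots were averaged as processed signals, from the scanner files or from the series table (1.22 from both).

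Leaving out 1 array ended no call of the MIR222 arm ratio and made none for the guide arms. A group left with 1 array takes its spread from the others, and the floored miR-222-5p keeps that ratio nearly fixed (2.63 to 2.80 with both drugs). Over these fits miR-221-3p ranged from -0.12 to 0.073 with luteolin, from -0.14 to 0.051 with both drugs and from -0.10 to 0.060 for both drugs against luteolin. miR-222-3p ranged from -0.014 to 0.091 with luteolin, from -0.078 to 0.0052 for the gefitinib main effect, from 0.077 to 0.24 with both drugs and from 0.038 to 0.20 for both drugs against luteolin. miR-221-5p ranged from -0.54 to 0.26 with luteolin, from -0.53 to 0.13 with gefitinib, from -0.56 to 0.10 with both drugs and from -0.29 to 0.51 for the interaction. The MIR221 arm ratio ranged from -0.20 to 0.43 with luteolin, from -0.52 to -0.047 with gefitinib and from -0.049 to 0.42 with both drugs.

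On all 8 arrays the replicate number equals the array's row on the slide, so number and row cannot be told apart, and the labels name no shared culture or day. Replicate differences over 365 miRNAs correlated at 0.908 for DMSO and luteolin, 0.409 for DMSO and both drugs and 0.461 for luteolin and both drugs, but at -0.135, -0.093 and 0.065 for gefitinib with DMSO, luteolin and both drugs. With the replicate block, 9 miRNAs were called with luteolin instead of 10, 58 with gefitinib as without it, and 62 with both drugs instead of 58. In that paired fit miR-221-3p with gefitinib had -0.49 (limma adjusted p = 0.0910) and no call of a guide or passenger arm against DMSO changed. With the gefitinib and DMSO arrays alone, 54 miRNAs were called with no block, 8 with the numbers as given and 10 with them crossed. With the gefitinib arrays counted as 1 sample, 14 were called instead of 58, and miR-221-3p had an adjusted p of 0.262. Scaling to the percentile over all human miRNAs could not be run, since it fell on the value for undetected miRNAs, and the methods' t-test and the fits of single pairs of groups give no main effect or interaction. The signal of miR-222-5p, close to the detection limit, limits its fold changes.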
